A study of Danio rerio with 29 samples.

Results

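Opsins are the light-sensing receptors of animals, and the zebrafish opsin gene family described here was read from every row of the count tables whose gene symbol belongs to it. The family was taken by name: the opn1 and opn3 to opn9 series, the tmtops, valop and parapinopsin genes, and the remaining named opsins such as parietopsin, rgr, rgrb and rrh. Of 32520 rows, 42 were members, and 38 of them, under 36 symbols, are described here. Of the family genes described, the supplied RefSeq gene table lists 41, and 33 of these stand in the count tables under their own symbol. The other 8 include opn1sw1, opn4a, opn4b, opn4.1, rgra and tmtopsa. The count tables hold 3 rows listed as OPN4, 1 as OPN1SW and 1 as RGR, and the name table does not say which zebrafish genes these are. No row matched tmtopsa by name, and since some identifiers have no symbol, it may stand among these rows; it is not analysed here. OPN4 rows 1 to 3 are ENSDARG00000007553, ENSDARG00000022098 and ENSDARG00000053929.

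An opsin binds a vitamin A derived chromophore, and light changes the shape of the chromophore and so switches a G protein on. Cone opsins serve colour vision in the retina. Fish carry many further opsins in the pineal organ, a light-sensing gland on top of the brain that makes melatonin, in deep brain neurons and in other tissues. RGR and its relatives bind the all-trans form of the chromophore and are known for turning it over rather than for signalling.

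The libraries were of poly(A) RNA from adult zebrafish, either whole brains or whole bodies with the brain removed. Wild-type (WT) fish were siblings from crosses of heterozygotes, and mutants were homozygous for 1 of 2 CRISPR/Cas9 alleles of ccser1, CCSER1_P471 (M) or CCSER1_S48Y* (S). There were 3 WT, 4 M and 4 S brain libraries and 6 body libraries of each genotype, and within a tissue M and S were set against the same WT libraries. The line whose siblings served as WT, the sex, clutch, pooling and batch of the fish, and the side on which eyes and pineal organ fell in the dissection are not in the labels. Nor do the labels say that each library is a separate animal, and p-values therefore cover the spread among these libraries alone.

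Brain libraries held 7445865 to 9521735 counts, of which 450 to 802 were counts of these opsins. Body libraries held 9450422 to 11674882, of which 103 to 230 were counts of these opsins. The mutated gene ccser1 was at 9.40 ± 1.79 CPM (reads scaled to equal library size, SD, n = 3) in WT brains, 8.38 ± 1.54 (n = 4) in M and 10.7 ± 2.17 (n = 4) in S, with no call in either line. In bodies it was lower in both lines, by 0.69 on the log2 scale in M (edgeR adjusted p = 0.0341) and by 0.70 in S (adjusted p = 0.0299). Of all genes tested in bodies, 20.7% were called lower in M and 21.1% in S. WT and mutant bodies also differed in ovary markers, as given below, and the part of this in the ccser1 values was not tested. Gene counts do not show the edited bases themselves. Of 22 lens markers measured, 3 were at 0 in every brain. The lens crystallin CRYAA was among them, and it was at 0 in every body too. It does not stand for the lens list, which summed to 27.0 to 42.3 CPM in WT brains, 12.2 to 17.1 in M and 15.7 to 26.0 in S. Most of each of these sums came from a single CRYAB row. S brain 3 held 1031 CPM of muscle markers and 3744 CPM of epidermis markers, against 39.4 to 96.3 and 11.4 to 562 in the other 10 brains, and the call of parapinopsinb in S brains, given next, was also made without it.

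Among the opsins described, parapinopsinb, one of the parapinopsins known from the pineal complex, rose in the brains of both mutant lines. Beside it OPN4 row 1, a melanopsin, fell in M brains, and tmtops3b, a teleost multiple tissue opsin, fell in S brains. Both of these falls lost their call without WT brain 3 (edgeR adjusted p = 0.0682 and 0.336). Of the 38 rows, 37 had a count in some brain and 21 passed the filter on low counts, and 2 of those 21 were called in each line, 1 higher and 1 lower. Of all 18733 genes tested, 10.1% were called in M brains (4.93% higher, 5.19% lower) and 10.3% in S brains (5.59% higher, 4.73% lower). The number of opsins called is near that share. The median log2 change over the 21 was 0.14 in M and 0.23 in S, beside 0.01 and 0.00 over all genes. A member low in WT could pass the filter through high mutant libraries alone, so these counts do not describe the whole family. Summed over the 38 rows, opsin RNA was at 66.0 ± 7.55 CPM in WT brains (SD, n = 3), 76.4 ± 8.82 in M (n = 4) and 80.3 ± 6.56 in S (n = 4), and M overlapped with WT while every S brain lay just above the highest WT brain. Fewer cells that express a gene and less RNA of it per cell cannot be told apart in such tissue libraries.

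**Figure D1:**
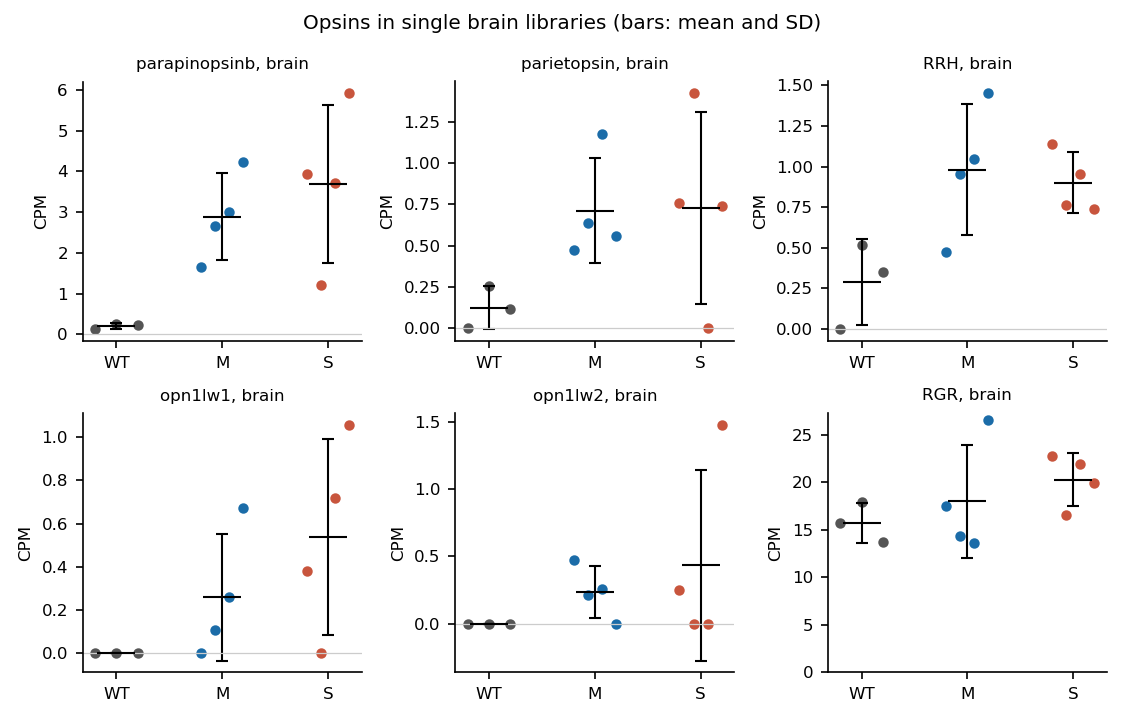
Level in CPM (y axis) of 6 opsins in each brain library, by group (x axis: 3 WT, 4 M and 4 S), with bars for the mean and SD. Parapinopsinb lies above every WT brain in all 8 mutant brains, while parietopsin, RRH, opn1lw1, opn1lw2 and RGR overlap with WT in at least 1 mutant brain.

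Among the opsins named for the pineal and the deep brain, parapinopsinb had 1, 2 and 2 counts in WT brains 1 to 3. M brains 1 to 4 had 14, 25, 23 and 38, and S brains 1 to 4 had 31, 11, 31 and 56. No mutant library overlapped with WT. The level rose from 0.207 ± 0.0688 CPM (SD, n = 3) to 2.89 ± 1.07 in M (n = 4), by 3.71 on the log2 scale (SE 0.637, adjusted p = 0.00271), and to 3.69 ± 1.93 in S (n = 4), by 4.06 (SE 0.633, adjusted p = 0.00155).

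Parietopsin, an opsin first described in the parietal eye of lizards, was too sparse to be tested. It had 0, 2 and 1 counts in WT brains 1 to 3, 4, 6, 9 and 5 in M brains 1 to 4 and 6, 13, 0 and 7 in S brains 1 to 4. All M brains and all S brains but S brain 3 stood above WT. The ratio to WT was 5.59 in M (95% interval 1.70 to 29, counting error only) and 5.99 in S (1.84 to 30.9). Without WT brain 2, which held 2 of the 3 WT counts, it was 11.4 and 12.2. With no filter on low counts its adjusted p was 0.216 in M and 0.201 in S, short of a call. Parapinopsina had 0 counts in WT brains, 3 in M brains and 4 in S brains. The long-wave cone opsin genes opn1lw1 and opn1lw2, which lie next to one another and beside opn1sw2 in the RefSeq table, had 0 counts in every WT brain. Opn1lw1 summed to 9 counts in M brains and 19 in S brains, 2.1 and 4.38 times a floor of 3 counts over the WT group. Such multiples leave out the counting error of the mutant sums. Opn1lw2 summed to 8 and 16, or 1.86 and 3.69 times that floor, and 14 of its 16 S counts came from S brain 4. Without the filter neither passed (adjusted p = 0.215 and 0.298 in M, 0.101 and 0.177 in S).

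The other cone opsins were near absent from brains: OPN1SW, opn1sw2 and opn1mw1 to opn1mw4, the 4 adjacent middle-wave copies, had 0 to 8 counts each over all 11 brains, and opn1mw4 had none. No cone opsin passed the filter in brains or in bodies, so none entered the counts of called opsins. Peropsin, RRH, a chromophore-binding opsin of the retinal pigment epithelium in mammals, had 0, 4 and 3 counts in WT, 4, 9, 8 and 13 in M brains 1 to 4 and 9, 7, 8 and 7 in S brains 1 to 4. All mutant brains but M brain 1, which tied with the highest WT brain, stood above WT. Its change without the filter was 1.71 for M (SE 0.765, adjusted p = 0.212), with 1.58 for S (SE 0.768, adjusted p = 0.259).

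RGR, the retinal G protein-coupled receptor, was not called in brains of either line. WT brains 1 to 3 had 122, 139 and 117 counts, M brains 148, 135, 104 and 238 and S brains 180, 151, 183 and 189. M and S brains overlapped with WT once scaled to library size, although every S count lay above every WT count. The change was 0.20 for M (SE 0.211, adjusted p = 0.604), with 0.36 for S (SE 0.211, adjusted p = 0.299). Its paralogue rgrb was at -0.27 and -0.41 (adjusted p = 0.794 and 0.663). The 6 neuropsin relatives that were tested, opn6b, opn7b, opn7c, opn7d, opn8b and opn8c, had no call in either line, with log2 values from -0.66 to 0.40 in M and from -1.55 to 0.31 in S. The most negative of these was opn8c in S brains, with 9, 3, 2 and 1 counts against 6, 10 and 16 in WT (adjusted p = 0.149). The sparse OPN5, opn6a, opn7a, opn8a and opn9 summed to 13 to 57 counts over the 11 brains and were not tested.

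**Figure D2:**
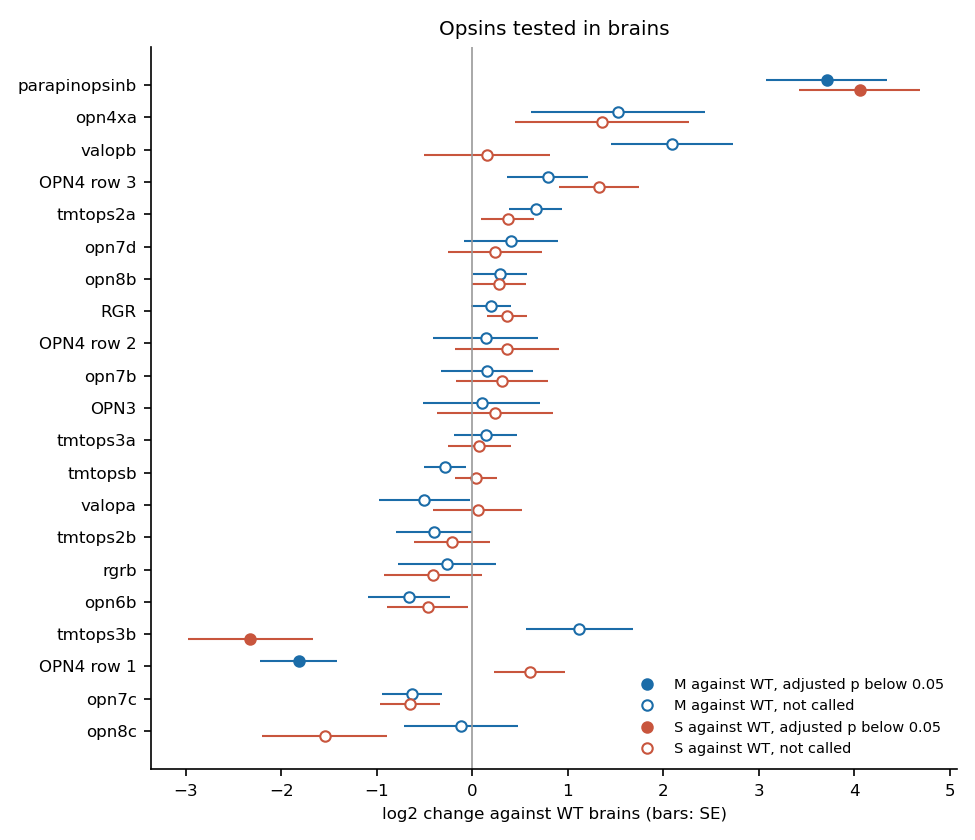
Log2 change against WT brains (x axis, bars: SE) of 21 tested opsins (y axis) in M and S brains, with filled points for calls. Parapinopsinb stands apart at 3.71 and 4.06, and OPN4 row 1 and tmtops3b carry opposite signs in M and S.

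Many genes of the light-signalling cascade downstream of the opsins were higher in the same brains. Of 23 rod transduction genes measured 17 were tested, and 11 of them were higher in M brains and 12 in S brains, and none was lower (median log2 change 1.91 and 2.48). Of 22 cone transduction genes 16 were tested, and 13 were higher and 1 lower in M, and 15 higher in S (median 3.11 and 3.06). Of the retinoid cycle, which makes and recycles the chromophore, 21 of 24 were tested, and 7 were higher in M and 9 in S, with medians of 0.42 and 0.14. Of photoreceptor regulators and outer segment genes 18 of 32 were tested, and 6 were higher and 2 lower in M, and 7 higher in S. For all genes the medians were 0.01 and 0.00, as above. Of all genes tested, 4.93% were higher and 5.19% lower in M brains, and 5.59% were higher and 4.73% lower in S brains. Genes near 0 in WT brains, such as AIPL1 and crx, could pass the filter only through high mutant brains, so these counts and medians do not describe the whole lists. Many of these genes serve both retinal and pineal photoreceptors.

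Several markers of the pineal rose beside parapinopsinb. Of 7 tested pineal markers 4 were higher and none lower in each line, beside 4.93% of all genes higher in M and 5.59% in S. Markers low in WT brains, such as ASMT, aanat2 and GNAT1, could pass the filter through high mutant brains. The count of 4 among 7 therefore cannot be weighed against the share of all genes. The list summed to 29.3 to 41.8 CPM in WT brains, 81.0 to 116 in M and 72.6 to 108 in S. ASMT, which completes melatonin synthesis, went from 0.756 ± 0.249 CPM (SD, n = 3) to 17.6 ± 4.87 in M and 19.9 ± 7.43 in S (n = 4 each). The pineal N-acetyltransferase gene aanat2 went from 1.04 ± 0.232 to 9.76 ± 3.94 and 7.52 ± 2.04 CPM, and GNAT1, the rod transducin, from 1.09 ± 0.941 to 25.8 ± 8.12 and 31.0 ± 7.33 CPM. All 3 had adjusted p from 0.000108 to 0.000641 across both lines. GNAT1 stands in the rod transduction list too. Not every marker of the list rose. Asmt2 lay at 7.34 to 14.3 CPM in WT brains, 6.41 to 8.50 in M and 6.76 to 9.09 in S. Cldn7a lay at 6.33 to 17.6 CPM in WT, 9.40 to 15.2 in M and 7.98 to 10.5 in S. No pineal marker was at 0 in all brains.

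Markers of the other cells of an eye were mixed. Of all genes tested, 10.1% were called in M brains and 10.3% in S brains, and 1 call among 9 or 10 markers is near that share. Retinal ganglion cell markers had 1 of 9 lower in M and no call in S, and their sums were 910 to 1079 CPM in WT, 866 to 936 in M and 920 to 1026 in S. Bipolar cell markers had 1 of 9 higher and 1 lower in each line, with sums of 110 to 127, 119 to 147 and 128 to 144 CPM. Amacrine and horizontal cell markers had 3 of 10 higher in M, and 2 higher and 1 lower in S, and Müller glia markers had 0 of 10 called in M and 1 higher in S. Retinal pigment epithelium markers had 2 of 9 higher and 1 lower in M and 2 higher in S. Their sums were 40.4 to 52.0 CPM in WT, 65.1 to 81.8 in M and 91.8 to 128 in S. An RPE65 row, the retinoid isomerase, took 5.39, 27.5 and 63.9 CPM of these on average. Another RPE65 row averaged 18.3, 18.6 and 15.3 CPM. A further RPE65 row ran from 3.99 to 9.91 CPM in WT, 8.26 to 12.5 in M and 7.29 to 8.37 in S. The pigment gene TYR was the only 1 of the 16 pigment epithelium markers measured that was at 0 in all brains. Lens markers summed to 27.0 to 42.3 CPM in WT, 12.2 to 17.1 in M and 15.7 to 26.0 in S, with 2 of 5 lower in M and no call in S. Many retinal neuron markers are also expressed in brain neurons. None of 9 muscle, 8 epidermis, 6 testis, 2 ovary and 1 pituitary markers tested was called in brains of either line. That does not mean equal levels. The median log2 change of muscle markers was -1.23 in M and 2.52 in S, and that of epidermis markers -0.05 and 1.53. S brain 3, high in both lists, widened the spread in S. The part of pineal or eye tissue in the opsin values was not tested.

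The lines differed from one another in 3 opsins of brains, OPN4 row 1, tmtops3b and valopb. Of all genes, 10.1% were called between M and S brains (4.64% higher in M, 5.41% lower). OPN4 row 1, a melanopsin, had 32, 30 and 69 counts in WT brains 1 to 3. M brains 1 to 4 held 13, 14, 12 and 13, and S brains 1 to 4 held 66, 103, 83 and 29. M brains were tightly grouped below every other brain, and S brains overlapped with WT, with S brain 4 the lowest of them. Its level fell from 5.35 ± 2.37 CPM (SD, n = 3) to 1.51 ± 0.0525 in M (n = 4), by 1.82 on the log2 scale (SE 0.403, adjusted p = 0.0125), a call lost without WT brain 3 (adjusted p = 0.0682). In S it was 8.15 ± 3.60 CPM (log2 0.60, SE 0.374, adjusted p = 0.338), and M against S was at -2.42 (SE 0.380, adjusted p = 0.00158). OPN4 rows 2 and 3 and opn4xa, the other tested melanopsins, had no call, with OPN4 row 3 nearest in S brains (log2 1.32, SE 0.419, adjusted p = 0.0582). Opn4xb had 0 counts in WT brains, 6 in M and 4 in S, too few to test.

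Tmtops3b had 8, 5 and 35 counts in WT brains 1 to 3. M brains 1 to 4 had 51, 34, 19 and 43, and S brains 1 to 4 had 5, 1, 3 and 4. Every S brain lay below every M brain, and WT brain 3 stood among the M brains while the other 2 WT brains were near S. The difference of M from S was 3.45 (SE 0.608, adjusted p = 0.00321). Against WT tmtops3b fell in S brains by 2.33 (SE 0.655, adjusted p = 0.0364), which dropped out of the calls when WT brain 3 (-1.12, adjusted p = 0.336), S brain 2 (adjusted p = 0.0984), S brain 3 (0.0717) or S brain 4 (0.0797) was omitted. In M brains it was at 1.12 (SE 0.561, adjusted p = 0.223). The other tmt opsins and encephalopsin, OPN3, had no call in either line, with log2 values from -0.40 to 0.66 for tmtops2a, tmtops2b, tmtops3a, tmtopsb and OPN3.

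Valopb, of the vertebrate ancient long opsins of the retina and deep brain, had 4, 12 and 10 counts in WT brains, 29, 8, 55 and 64 in M brains 1 to 4 and 11, 14, 5 and 12 in S brains 1 to 4. M brains 1, 3 and 4 stood above all others, and M brain 2 lay within the WT range. M exceeded S by 1.94 (SE 0.562, adjusted p = 0.0438), a call lost in 7 of 8 fits that each dropped 1 library. Against WT it was at 2.09 for M (SE 0.635, adjusted p = 0.0521), with 0.15 for S (adjusted p = 0.912), and the M value was called by DESeq2 (adjusted p = 0.0154) and without M brain 2 (2.44, adjusted p = 0.00953). Its paralogue valopa was at -0.50 and 0.05 (adjusted p = 0.544 and 0.958).

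**Figure D3:**
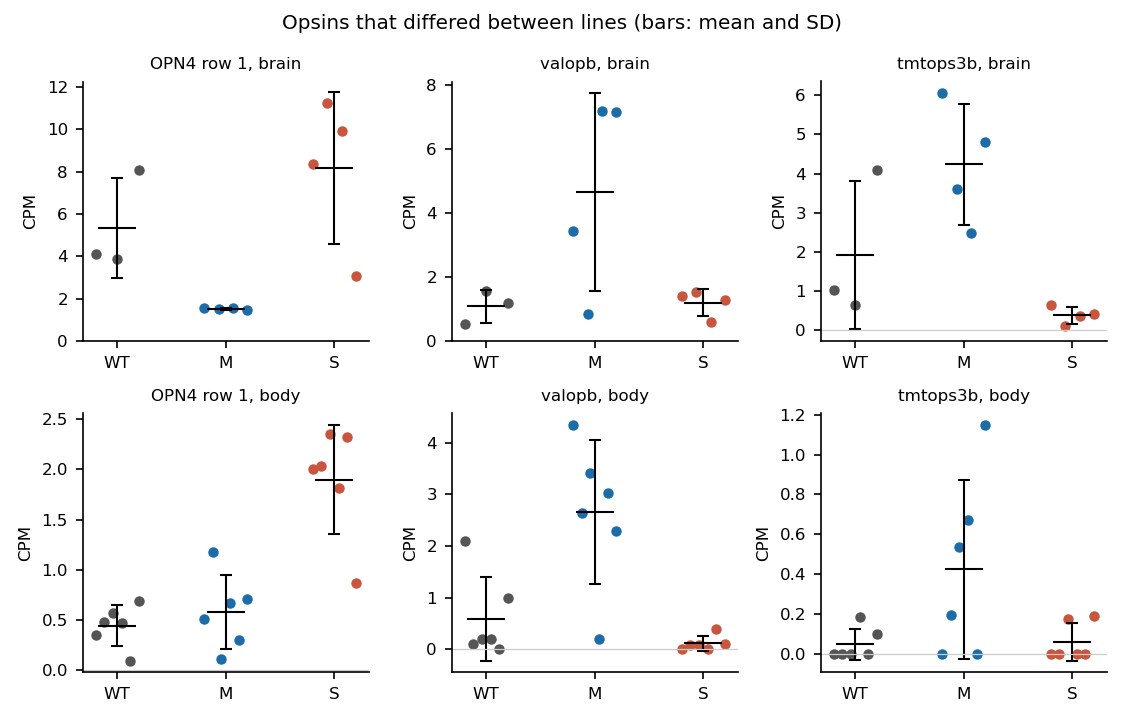
Level in CPM (y axis) of OPN4 row 1, valopb and tmtops3b in each library, by group (x axis), in brains (upper row, 3 WT, 4 M, 4 S) and bodies (lower row, 6 each), with bars for the mean and SD. OPN4 row 1 is lower in M than in S and valopb higher in M than in S in both tissues.

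In bodies without the brain 36 of the 38 rows had a count, but only 5 passed the filter: OPN4 row 1, valopb, tmtopsb, RGR and rgrb. Compared with WT, 3 of the 5 were called in M (2 higher, 1 lower) and 3 in S (2 higher, 1 lower), where 33.1% of all genes tested were called in M (12.4% higher, 20.7% lower) and 36.8% in S (15.7% higher, 21.1% lower). The median log2 change of the 5 was 0.41 in M and -0.54 in S, beside 0.05 and 0.02 over all genes. The calls among the 5 stand against that background. Between M and S bodies 2 of 5 were called, beside 8.11% of all genes (4.3% higher in M, 3.81% lower).

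OPN4 row 1 and valopb separated the lines in bodies in the direction seen in brains. OPN4 row 1 had 1 to 7 counts in WT bodies (median 5.0), 1 to 12 in M (median 6.0) and 9 to 27 in S (median 22.0). All S bodies but S body 6 lay above every other body. It rose in S from 0.439 ± 0.205 CPM (SD, n = 6) to 1.90 ± 0.547 (n = 6), by 2.09 (SE 0.420, adjusted p = 0.00107), M was at 0.41 (SE 0.461, adjusted p = 0.506), and M against S was at -1.68 (SE 0.408, adjusted p = 0.0134). Valopb had 0 to 24 counts in WT bodies (median 2.0), 2 to 43 in M (median 28.5) and 0 to 4 in S (median 1.0). M bodies stood above S except for M body 4, with 2 counts, while WT bodies 1 and 6, with 24 and 10, rose out of the WT group. M exceeded S by 4.46 (SE 0.901, adjusted p = 0.00384) and WT by 2.13 (SE 0.714, adjusted p = 0.0283), and the latter call was lost in 6 of 12 fits with 1 library left out. S was at -2.34 against WT (SE 1.003, adjusted p = 0.0738). Tmtops3b, below the filter, summed to 3 counts in WT bodies, 27 in M and 4 in S, a ratio of M to WT of 9.47 (95% interval 2.92 to 48.8, counting error only). M body 6 held 13 of the 27, M bodies 1 and 5 were at 0, and WT body 4 held 2 of the 3. The ratio was 6.03 without M body 6 and 23.7 without WT body 4. Opn7b, of the neuropsin relatives and also below the filter, summed to 3 counts in WT bodies, all in WT body 6, 17 in M and 21 in S.

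Tmtopsb, another multiple tissue opsin, had less RNA in M and in S bodies than in WT bodies. It had 77, 31, 13, 62, 34 and 10 counts in WT bodies 1 to 6, with a range of 0 to 11 in M (median 6.5) and 0 to 10 in S (median 5.0). Only WT body 6, with 10, came within the range of the mutants. The level fell from 3.46 ± 2.33 CPM (SD, n = 6) to 0.505 ± 0.423 in M, by 2.75 (SE 0.673, adjusted p = 0.00428), and to 0.459 ± 0.345 in S, by 2.90 (SE 0.678, adjusted p = 0.00322). In brains tmtopsb was at -0.29 in M and 0.03 in S (adjusted p = 0.443 and 0.940).

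RGR had 0 to 11 counts in WT bodies (median 4.0), 8 to 35 in M (median 10) and 8 to 27 in S (median 14.5). WT bodies 3 and 6 overlapped with the mutants and the other 4 did not. It rose by 1.65 for M (SE 0.536, adjusted p = 0.0236), against 1.59 for S (SE 0.536, adjusted p = 0.0270), and both calls were lost without WT body 4 (adjusted p = 0.0575 in M and 0.0626 in S) or 5 (0.0512 and 0.0570). Leaving out M body 4 ended the M call (0.0829) and leaving out S body 6 the S call (0.0725). Rgrb was at -0.16 and -0.54 (adjusted p = 0.757 and 0.245).

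Parapinopsinb, which rose in mutant brains, was lower in mutant bodies, where it was too sparse for the filter. WT bodies 1 to 6 had 1, 1, 1, 9, 2 and 6 counts. A single count was found among the 6 M bodies and another among the 6 S bodies, so nearly all mutant bodies were at 0 and all WT bodies were not. The ratio to WT was 0.0526 in M (95% interval 0.00127 to 0.329, counting error only) and 0.0499 in S (0.00120 to 0.312), or 0.0797 and 0.0756 without WT body 4, and with no filter the adjusted p was 0.00909 and 0.00735. The cone opsins stayed sparse in bodies, and opn1sw2, of the short-wave type, had the most, with 2 to 18 counts in WT bodies, 1 to 7 in M and 0 to 9 in S.

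Other tissues differed between these bodies as well. Ovary markers summed to 852 to 5256 CPM in WT bodies, 9.19 to 83.4 in M and 10.1 to 727 in S, and the pituitary hormone gene gh1 was under 1 CPM in 5 bodies, WT bodies 1, 2 and 5 and M bodies 2 and 5. Among WT bodies, tmtopsb was lowest, at 1.22 and 0.985 CPM, in bodies 3 and 6, whose ovary sums were lowest too, at 1085 and 852 CPM. With the ovary sum as a covariate none of the 5 opsins was called against WT in either line; tmtopsb was then at -2.57 for M (adjusted p = 0.829), with -2.75 for S (adjusted p = 0.533), OPN4 row 1 at 2.25 in S (adjusted p = 0.132), and RGR at -0.32 for M (adjusted p = 0.994) and -0.0067 for S. Valopb in M, by contrast, was further from WT there, at 3.47 (adjusted p = 0.718). In that fit only 31 of all genes were called in M and 201 in S. No mutant body overlapped with WT in the ovary sum, so that fit cannot separate the ovary sum from genotype. The calls lost in it therefore decide nothing. Without the 5 bodies low in gh1, no opsin was called in M (tmtopsb -1.81, adjusted p = 0.0922, and valopb 2.47, adjusted p = 0.0671), and 2 were called in S, tmtopsb and OPN4 row 1. Fewer of all genes were called there too, 2423 in M and 3091 in S, against 6696 and 7445 with all bodies. The calls of OPN4 row 1 and valopb between M and S bodies were made under both alternatives.

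**Figure D4:**
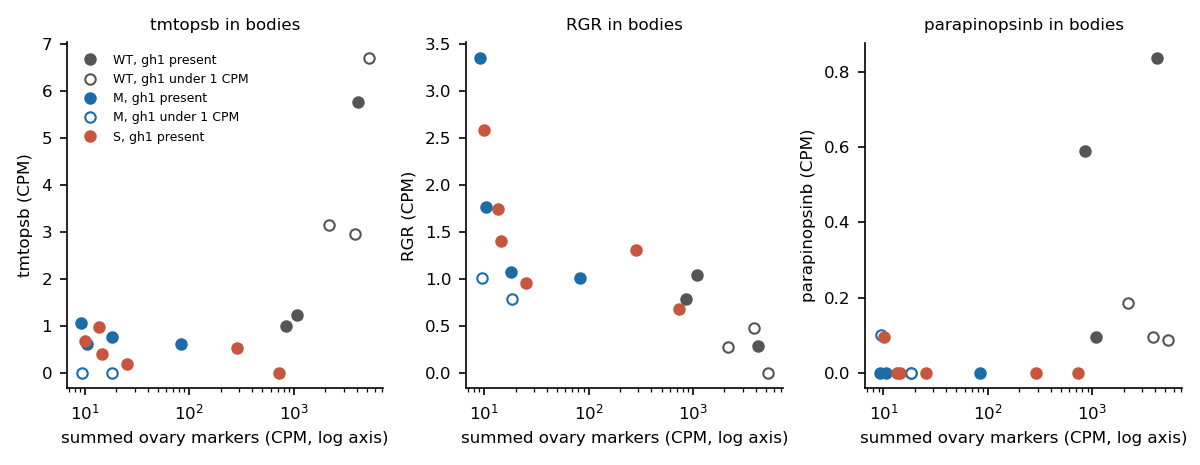
Level in CPM (y axis) of tmtopsb, RGR and parapinopsinb in each body library against the summed CPM of ovary markers (x axis, log scale), 6 bodies a group, open where gh1 was under 1 CPM. WT bodies lie at 852 to 5256 CPM of ovary markers, where tmtopsb and parapinopsinb are mostly higher and RGR mostly lower, and mutant bodies lie at 9.19 to 727.

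The effect of each allele was compared between tissues in a fit of all 29 libraries, in which 22 of the 38 rows were tested. For M, 3 of 22 differed (12.3% of all genes, 8.69% with a higher effect in brain and 3.64% with a lower one), and for S 3 of 22 (9.17% of all genes, 6.42% and 2.75%). The effect on parapinopsinb was higher in brain by 7.27 for M (SE 1.15, adjusted p = 0.000461) and by 7.69 for S (SE 1.14, adjusted p = 0.000283), sizes that depend on the prior count because a body group had 1 count. For tmtopsb the effect was higher in brain by 2.5 for M (SE 0.804, adjusted p = 0.0397) and by 3.0 for S (SE 0.808, adjusted p = 0.0209). For OPN4 row 1 the M effect in brain minus that in body was -2.20 (SE 0.645, adjusted p = 0.0246), and for OPN4 row 3 the S effect was higher in brain by 2.38 (SE 0.728, adjusted p = 0.0396). With each of 19 libraries left out in turn, the call of parapinopsinb was made every time in both lines. The call was lost in 11 of 19 fits for tmtopsb in M, in 12 for OPN4 row 3 in S, and in 2 each for OPN4 row 1 in M and tmtopsb in S. WT brain 3 was among the libraries that ended each of them (adjusted p = 0.0917 for tmtopsb in M, 0.101 for OPN4 row 3, 0.0960 for OPN4 row 1 and 0.0563 for tmtopsb in S). With another scaling, which moved the median of all genes by -0.16 for M and -0.13 for S, tmtopsb for M (adjusted p = 0.0546) and OPN4 row 3 for S (adjusted p = 0.0510) missed. Without the bodies low in gh1, tmtopsb (adjusted p = 0.217) and OPN4 row 1 (0.169) for M and OPN4 row 3 for S (0.180) missed. Every WT body was higher in ovary markers than every mutant body, and each body effect compares these bodies. The part of that ovary difference in the effects was not tested.

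In WT fish RGR, most tested multiple tissue opsins and the 6 tested neuropsin relatives were higher in brain than in the rest of the body. Of 22 tested, 17 were higher in brain and 1, rgrb, lower, while 79.7% of all 22442 genes were called (37.9% higher, 41.7% lower). The median log2 difference was 2.95 over the members and -0.12 over all genes, and the other scaling moved the latter by -0.15. As 21 opsins passed the filter in brain and 5 in body, most of the 22 passed through brain libraries, where they are high, so neither the count nor the median stands for the family. With no filter 20 of 38 were called, 18 higher and 2 lower, rgrb and opn1sw2, and 18583 of all genes were called in that fit. RGR was higher in brain by 4.53 (SE 0.439, adjusted p = 3.79e-10), tmtops3a by 3.86 (SE 0.548), tmtops2a by 3.63 (SE 0.489), opn7c by 3.44 (SE 0.503) and OPN4 row 1 by 3.08 (SE 0.441). Opn7b had 50 counts in WT brains and 3 in WT bodies, a ratio of 44.5 (95% interval 14.4 to 223, counting error only), with all 3 in WT body 6. Opn4xa had 12 and 0, which put brain at 10.7 times the floor of 3 counts over the body group, without the counting error of the 12. Rgrb had 8 to 12 counts in WT brains and 20 to 100 in WT bodies, a difference of -2.59 (SE 0.506, adjusted p = 4.16e-05), the opposite of its paralogue RGR. OPN4 row 3, tmtopsb, valopb and parapinopsinb were not called (adjusted p = 0.503, 0.541, 0.719 and 0.230). Calls of opn8c, RRH and opn7d were lost in 5, 2 and 1 of 9 fits that each dropped a WT library. Dissection goes with tissue and cannot be told apart from it.

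**Figure D5:**
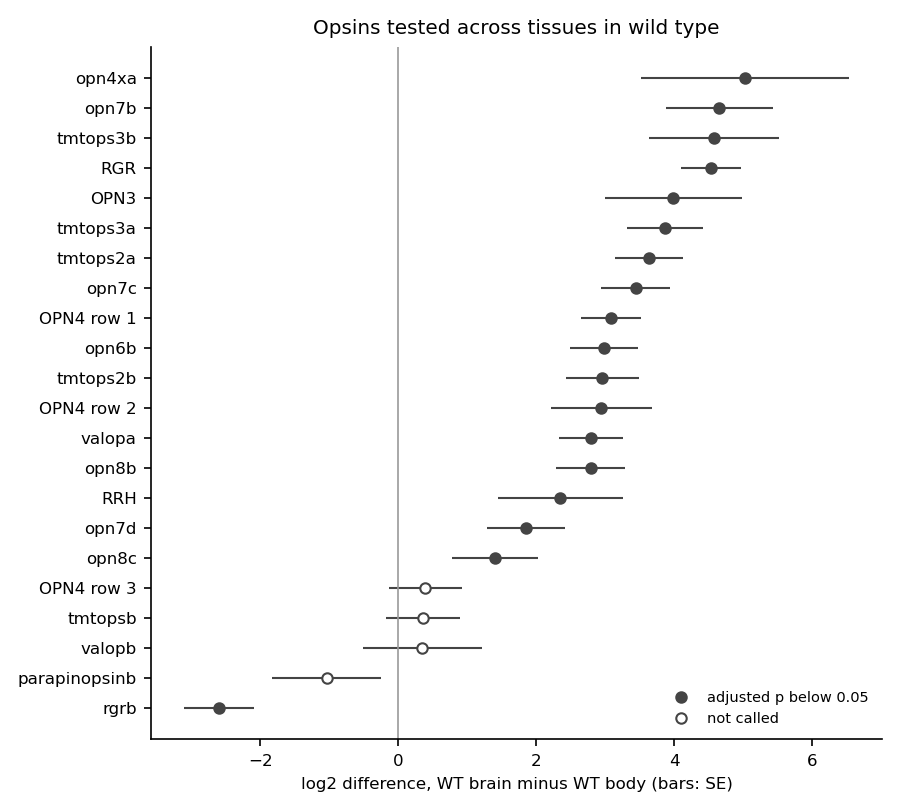
Log2 difference of WT brain from WT body (x axis, bars: SE) of 22 tested opsins (y axis), with filled points for calls, from 3 brain and 6 body libraries. Of these, 17 lie above 0 and are called, rgrb lies at -2.59, and the value of opn4xa depends on the prior count because WT bodies had 0 counts.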

How the data were processed

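The deposited values were raw counts per gene in 2 tables, of brains and of bodies, and the authors had not normalized these counts. Per the labels' protocols, the poly(A) libraries were sequenced on a HiSeq as read pairs of 150 bp. STAR, GRCz11 and GRCz10 are named, without roles, per the submitters' processing notes. No source used here gives the counting program, annotation or strand setting, so reads of overlapping antisense genes cannot be told apart. Every row named a gene identifier, and 29201 of 32520 matched a symbol in the supplied table.

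The test was the quasi-likelihood F test of edgeR 4.0.16, run under R 4.3.3 with robust dispersions, TMM scaling and the default filter on low counts, all 3 groups of a tissue in 1 fit and all 29 libraries for effects between tissues. Every adjusted p not credited to DESeq2 is a Benjamini-Hochberg value from edgeR over all genes tested, and genes below 0.05 were called. The tests covered 18733 genes in brain and 22442 in the fit of both tissues. Levels are CPM after TMM scaling, and SE was derived from the F statistic. Intervals are exact binomial (95%) and cover counting error only. The floor of 3 counts stands in for a group at 0, and multiples of it leave out the counting error of the other group. Each fit was also run on a single draw of simulated counts, with known changes in far fewer genes than were called in the real data. The share of false calls among the calls was above the threshold in the brain fit. It was slightly above the threshold in the fit of both tissues and below it in the body fit. Such a draw does not give the false share among the real calls. Brain calls near the threshold may still be less certain than their adjusted p states. Alternatives were DESeq2 1.42.0, RLE factors, other filters, non-robust dispersions, a fit restricted to the compared groups, blocking on replicate number, and omitting each library in turn. Added after seeing the data were the fit without bodies low in gh1 and the ovary sum as covariate, as were the ovary, testis and pituitary marker lists.

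Of the 42 rows of the family rule, 4 are not reported here and stand outside every count of opsins given; every gene entered the fits and the adjustment. All other members are named. Those untested in brains are given by brain counts, some only as a range. Of those untested in bodies, body counts are given for a few alone, and others left out also differed in counts between groups. Tested members are given with their test or, where not called, in some cases only within a range or as without a call. Of the other lists, counts of called members are given, and genes are named only where opsin values stand beside them. Members and lists were chosen with earlier results of these data known. Per-length levels, promoters and proteins were intended but are not described, because no sequence was at hand.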

Additional observations from a re-analysis of the deposited data

Results flagged for a closer look

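In 3 of 57 groups of values 1 library stood apart from the rest of its group, where chance gives about 1 in 20. The WT brains, with 3 libraries, were too few for this check and were not examined. These were OPN4 row 1 in S body 6, low at 0.864 CPM, valopb in S body 5, high at 0.387 CPM, and tmtopsb in M brain 2, high at 6.70 CPM.

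The effect of an allele differed between brain and body, by the interaction test, for 4 opsins. For M the difference (brain minus body, log2) was -2.20 for OPN4 row 1, 7.27 for parapinopsinb and 2.5 for tmtopsb. For S it was 2.38 for OPN4 row 3, 7.69 for parapinopsinb and 3.0 for tmtopsb. The differences for tmtopsb in M and OPN4 row 3 in S were lost in 11 and 12 of 19 fits that each left out 1 library. Without the bodies low in gh1, those of tmtopsb and OPN4 row 1 in M and of OPN4 row 3 in S were lost. WT bodies were also higher in ovary markers than all mutant bodies, and the part of this in the differences was not tested. In parapinopsinb the effects had opposite signs, higher in mutant brains and lower in mutant bodies.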

How the results depend on the processing

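The brain call of parapinopsinb was made in both lines under every alternative run, with log2 changes of 3.46 to 4.35 over the fits with 1 library left out, as were those of OPN4 row 1 and tmtops3b between M and S brains. With 1 library left out the opsins called numbered 2 to 3 in M brains, 1 to 3 in S brains (1 without WT brain 3 or S brain 2, 3 or 4), 2 to 3 between them, 1 to 3 in M bodies (1 without WT body 4 or 5), 2 to 4 in S bodies, 2 between these, 1 to 4 for the M effect between tissues (1 without WT brain 3 or M body 2), 1 to 5 for the S effect (1 without WT brain 2 or 3, 5 without WT body 6), and 15 to 18 between WT tissues. The number of all genes called moved in these fits too. It ran from 1060 to 2590 in M brains, 895 to 1847 in S brains and 1067 to 2482 between them. In bodies it ran from 5335 to 8464 in M, 5791 to 9169 in S and 1221 to 1572 between these. For effects between tissues it ran from 1938 to 4139 for M and 1041 to 3439 for S, and between WT tissues from 17199 to 17942. With no filter 5 of 36 were called in M bodies, beside 6832 of all genes, and 5 of 36 in S bodies, beside 7646 of all genes. With only the groups compared, 1 was called in S brains, 1 in M bodies, 1 in S bodies, 1 between M and S bodies and 11 between WT tissues; fewer opsins were tested there (3 of 5 in M bodies), but valopb in M bodies was tested and missed (2.15, adjusted p = 0.0552). Of all genes, 1920, 5527, 6894, 2095 and 16289 were called in those comparisons, in that order. With the ovary covariate, which cannot be separated from genotype against WT, 0 were called in M bodies and 0 in S bodies. RGR was then at -0.32 in M and -0.0067 in S. Without the bodies low in gh1, 0 were called in M bodies, beside 2423 of all genes, and 1 for the M effect between tissues, beside 1217 of all genes. For single opsins, the alternatives other than those 2 added after seeing the data gave the same call 649 times, a lost call 69 times and a gained call 7 times. That tally includes the large differences between WT tissues. It also includes opsins short of a call that stayed uncalled, such as valopb in M brains. It therefore does not measure how stable the calls between genotypes are. The cause of the lost and gained calls was not tested.

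Replicate numbers were not taken as pairs, since no label says that a number marks a shared animal, clutch or day. Pairs with unlike numbers were not examined, so correlations cannot decide whether samples were paired. Not every pair of same-numbered samples correlated above 0.1. Correlations of their deviations ran from -0.251 to 0.125 over 10 brain pairs (2 above 0.1) and from -0.274 to 0.478 over 18 body pairs (10 above 0.1), of which 5 of the 6 WT and M body pairs lay between 0.121 and 0.478 and the sixth, of WT body 4 and M body 4, was at 0.0835. With the replicate number as a block, 2, 1 and 2 opsins were called in the M, S and M against S comparisons of brains and 3, 3 and 2 in bodies. Of all genes, 1544, 1352 and 1588 were called with that block in brains and 6669, 7945 and 1445 in bodies. There tmtops3b in S brains (adjusted p = 0.0737) and valopb between M and S brains (0.119) were lost. Low counts left 17 of 38 members untested in brain and 33 in body. Body libraries mostly held more counts in total than brain libraries, but fewer of these opsins, 103 to 230 against 450 to 802.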
